A study of Mus musculus with 6 samples.

Results

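Transcripts of 10 neutrophil granule genes were compared between livers of mice without miR-137 (Mir137-/-) and of wild-type mice (Mir137+/+), all taken on postnatal day 14. The genes were Mpo, Elane, Prtn3 and Ctsg, which encode proteins of primary granules, Ngp, Camp, Ltf and Chil3, whose products belong to secondary granules or to the stage that makes them, and S100a8 and S100a9, which encode the abundant cytosolic calcium-binding proteins of neutrophils. Every probe set was taken whose platform annotation gave exactly 1 gene symbol and that symbol was 1 of the 10. Each gene had 1 such probe set, so the members were 10 of 45037 probe sets and 10 of 18193 genes. The Mir137-/- mice lacked miR-137 in the whole body, from a deletion made with Cre recombinase in embryonic stem cells of another strain than C57BL/6. After crosses with C57BL/6 mice, heterozygous offspring were intercrossed. The study places Mir137 on chromosome 3, which also holds Chil3, S100a8 and S100a9. Whether DNA kept from the stem cell strain played a part was not tested. Mir137+/+ mice carried no deleted allele, and neither group was treated. Each group had 3 arrays, with total liver RNA of 1 mouse per array, and whether the livers were perfused to remove blood is not given in the sources used here. The question was whether transcripts of early and of later granules differed between the genotypes to a like degree.

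Neutrophils fill their granules in order as they mature. Promyelocytes make myeloperoxidase and serine proteases and store them in primary (azurophil) granules, myelocytes then make lactoferrin, cathelicidin and other proteins of secondary (specific) granules, and later stages make gelatinase granules and surface receptors. Most granule transcripts are lost before a neutrophil enters blood, so they mark precursors more than mature cells. S100a8 and S100a9 encode cytosolic proteins, and the same was not assumed for them. The liver makes blood cells before birth and for some time after it, and young mouse liver can hold such precursors. In bulk liver RNA, fewer cells of a type and less RNA per cell cannot be told apart.

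The arrays had medians between 4.88 and 4.91 on the log2 scale and lower quartiles between 3.40 and 3.47. The hepatocyte transcript Alb lay between 13.71 and 13.79 on all 6 arrays. Xist, which marks female cells, reached 10.91 on Mir137+/+ replicate 2 and 10.81 on Mir137+/+ replicate 3, and did not exceed 4.24 on any other array, although the methods of the study name male mice. Pancreas transcripts stood out on replicate 2 of both genotypes, where Cpb1, a pancreatic digestive enzyme, was at 9.53 in Mir137-/- and 7.84 in Mir137+/+, against 3.07 to 3.20 elsewhere. Skeletal muscle transcripts stood out on Mir137-/- replicate 1, with Acta1 at 11.38 there and at 4.68 to 5.84 elsewhere.

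Of the 10 granule probe sets, 8 were lower in Mir137-/- liver and 0 were higher, at a limma adjusted p below 0.05 and a change of more than 1.5-fold. Over all 45037 probe sets, 2.58% were called lower and 1.94% were called higher. The median difference of the 10 was -1.54 on the log2 scale, against 0.01 over all probe sets. On 9 of the 10, all 3 Mir137-/- arrays lay below all 3 Mir137+/+ arrays, which held for 13.9% of all probe sets. By class, 2 of 4 primary granule genes, 4 of 4 secondary granule genes and both S100 genes fell.

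**Figure D1:**
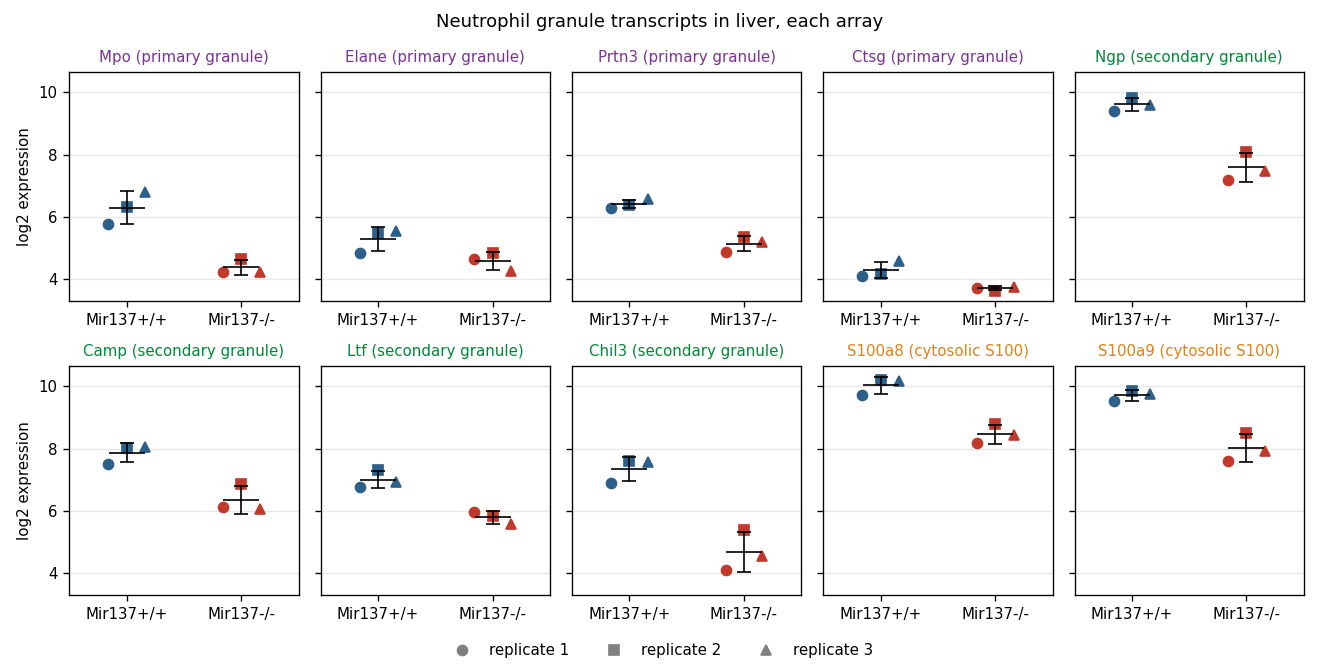
Log2 expression of each granule gene (10 panels) on the 3 Mir137+/+ arrays (blue) and the 3 Mir137-/- arrays (red). Marker shape gives the replicate number, and the bar with whiskers gives the mean and SD of 3 arrays. The groups are apart in every panel but Elane, where the highest Mir137-/- array (4.85) reaches the lowest Mir137+/+ array (4.84).

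Gene positions are given for GRCm38, from RefSeq. Mpo (chr11:87793784-87804412) encodes myeloperoxidase, the enzyme that makes hypochlorous acid in primary granules. Its level was 4.23, 4.66 and 4.24 on Mir137-/- replicates 1 to 3, in that order, and 5.77, 6.33 and 6.80 on those of Mir137+/+. Every Mir137-/- array lay below every Mir137+/+ array, by at least 1.11. Mpo fell by 1.92 on the log2 scale (SE 0.24, adjusted p = 0.00268), a 3.79-fold lower level. Prtn3 (chr10:79879667-79883174) encodes proteinase 3, a serine protease of the same granules. It was at 4.87, 5.34 and 5.18 in Mir137-/- and at 6.30, 6.39 and 6.56 in Mir137+/+. The groups did not overlap, and the Mir137+/+ arrays were close together (SD 0.13, n = 3). Prtn3 fell by 1.29 (SE 0.14, adjusted p = 0.00138), to a 2.44-fold lower level.

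The other two primary granule genes, Elane and Ctsg, did not pass. Elane (chr10:79886312-79888216) encodes neutrophil elastase, and its values were 4.64, 4.85 and 4.27 in Mir137-/- and 4.84, 5.48 and 5.53 in Mir137+/+. Mir137+/+ replicate 1 lay within the range of the Mir137-/- arrays. The Elane difference was -0.70 (SE 0.21, 95% interval -1.18 to -0.22, adjusted p = 0.0857). Without Mir137+/+ replicate 1 it was -0.92 and called (adjusted p = 0.0313), it was not called when any other array was left out, and against that array alone it was -0.25. Ctsg (chr14:56099885-56102574) encodes cathepsin G, and its values were 3.72, 3.63 and 3.76 in Mir137-/- and 4.10, 4.16 and 4.57 in Mir137+/+. These values lay above the lower quartile and below the median of every array. The Ctsg difference was -0.57 (SE 0.14, 95% interval -0.88 to -0.27, adjusted p = 0.0380), a 1.49-fold lower level that fell just short of the fold threshold. It was called with quantile normalization (-0.60) and with median centring (-0.59), but its adjusted p ran from 0.0513 to 0.106 when each array was left out in turn. It was -0.40 with a sex term (adjusted p = 0.401) and -0.60 without the arrays with pancreas transcripts (adjusted p = 0.169).

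The stretches upstream of the primary granule genes are shown because these genes are made at one stage and because they shared short motifs. Each is the 250 bases before the annotated start in the RefSeq promoter table (GRCm38.p6), 5′ to 3′ on the gene's strand, with matches in capitals. The motifs searched on both strands were GAGGAA (PU.1), TTNNGNAA (C/EBP), TGTGGT (RUNX) and the 4 forms of the MYB motif (CAACTG, its variants CAACGG and TAACTG, and also TAACGG), all named for blood cell transcription factors. No 2 matches overlapped in the windows of the 10 genes.
Mpo (chr11:87793534-87793783, plus strand): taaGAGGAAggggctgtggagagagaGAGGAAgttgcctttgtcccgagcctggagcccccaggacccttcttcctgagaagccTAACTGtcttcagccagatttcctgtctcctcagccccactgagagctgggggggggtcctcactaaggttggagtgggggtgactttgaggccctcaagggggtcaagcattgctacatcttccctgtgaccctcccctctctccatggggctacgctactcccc
Elane (chr10:79886062-79886311, plus strand): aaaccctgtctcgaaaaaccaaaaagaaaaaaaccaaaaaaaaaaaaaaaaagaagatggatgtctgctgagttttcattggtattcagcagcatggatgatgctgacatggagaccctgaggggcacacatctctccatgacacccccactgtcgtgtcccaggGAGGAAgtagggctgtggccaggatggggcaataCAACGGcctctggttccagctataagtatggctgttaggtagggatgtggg
Prtn3 (chr10:79879417-79879666, plus strand): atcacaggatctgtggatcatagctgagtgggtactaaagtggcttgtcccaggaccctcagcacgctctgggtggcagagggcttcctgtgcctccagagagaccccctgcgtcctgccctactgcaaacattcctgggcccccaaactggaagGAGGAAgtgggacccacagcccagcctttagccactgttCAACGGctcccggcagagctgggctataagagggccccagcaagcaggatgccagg
Ctsg (chr14:56102575-56102824, minus strand): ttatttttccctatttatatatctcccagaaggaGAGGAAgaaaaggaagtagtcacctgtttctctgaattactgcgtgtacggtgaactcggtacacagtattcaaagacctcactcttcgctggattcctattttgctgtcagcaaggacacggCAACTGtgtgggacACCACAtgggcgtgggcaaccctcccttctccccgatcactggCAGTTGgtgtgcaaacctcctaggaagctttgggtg

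All 4 of these windows held GAGGAA together with a MYB motif and had no TTNNGNAA. In Elane and Prtn3, which lie 3137 bases apart on chromosome 10, GAGGAA began 85 and 95 bases before the start and CAACGG began 51 and 56 bases before it. Ctsg was the one primary granule gene with a RUNX match. Among 32851 promoter windows of the same length, 23.3% held GAGGAA, 23.7% a MYB motif, 36.8% TTNNGNAA and 14.0% TGTGGT. Both GAGGAA and a MYB motif without TTNNGNAA were held by 3.19%. This combination is the pattern of these 4 windows themselves, so its share is a description and no test of them. Such matches describe letters in a window, and binding was not measured.

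The secondary granule genes fell together. Chil3 (chr3:106147554-106167564) encodes a chitinase-like protein of neutrophil precursors that some monocytes and macrophages make as well. It was at 4.11, 5.37 and 4.54 in Mir137-/- and at 6.90, 7.60 and 7.56 in Mir137+/+. It had the widest gap of the 10 genes, since the highest Mir137-/- array lay 1.53 below the lowest Mir137+/+ array. Chil3 fell by 2.68 (SE 0.31, adjusted p = 0.00184), a 6.41-fold lower level, and it also varied most among Mir137-/- arrays (SD 0.64, n = 3). Ngp (chr9:110419808-110423012) encodes neutrophilic granule protein, a relative of the cathelicidins. It was at 7.19, 8.10 and 7.48 in Mir137-/- and at 9.41, 9.83 and 9.61 in Mir137+/+. The groups were 1.31 apart at their nearest arrays. Ngp fell by 2.03 (SE 0.22, adjusted p = 0.00144), a 4.07-fold lower level.

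Camp (chr9:109847377-109849456) encodes the mouse cathelicidin, an antimicrobial peptide precursor. It was at 6.13, 6.86 and 6.07 in Mir137-/- and at 7.52, 8.02 and 8.06 in Mir137+/+. The groups did not overlap, and Mir137-/- replicate 2 stood above the other two Mir137-/- arrays. Camp fell by 1.51 (SE 0.23, adjusted p = 0.00603), a 2.85-fold lower level. Ltf (chr9:111019292-111042766) encodes lactoferrin, the iron-binding protein that defines secondary granules. It was at 5.96, 5.84 and 5.57 in Mir137-/- and at 6.77, 7.31 and 6.94 in Mir137+/+. Here Mir137-/- replicate 1, not replicate 2, was the highest of its group. Ltf fell by 1.22 (SE 0.16, adjusted p = 0.00326), a 2.32-fold lower level and the smallest change among the later genes.

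S100a8 (chr3:90669071-90670034) and S100a9 (chr3:90692630-90695721) encode the partners of calprotectin, which makes up much of the protein of neutrophil cytosol and binds zinc, manganese and calcium. S100a8 was at 8.17, 8.78 and 8.45 in Mir137-/- and at 9.72, 10.21 and 10.18 in Mir137+/+. S100a9 was at 7.60, 8.49 and 7.93 in Mir137-/- and at 9.53, 9.87 and 9.76 in Mir137+/+. Both pairs of groups were apart, by 0.94 for S100a8 and 1.04 for S100a9. S100a8 fell by 1.57 (SE 0.18, adjusted p = 0.00195), a 2.97-fold lower level. S100a9 fell by 1.71 (SE 0.21, adjusted p = 0.00239), a 3.28-fold lower level. The S100a8 probe set was of a type that can bind transcripts of more than 1 gene, whereas that of S100a9 was not.

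The windows of Chil3 and Ngp, the genes with the largest falls, and of S100a8 are shown for comparison with those of the primary granule genes, with the same motifs in capitals.
Chil3 (chr3:106167565-106167814, minus strand): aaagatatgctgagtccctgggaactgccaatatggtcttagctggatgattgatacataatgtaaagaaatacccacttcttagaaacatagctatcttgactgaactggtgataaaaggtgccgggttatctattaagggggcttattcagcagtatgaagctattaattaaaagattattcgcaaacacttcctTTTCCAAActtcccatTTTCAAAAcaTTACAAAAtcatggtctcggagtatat
Ngp (chr9:110419558-110419807, plus strand): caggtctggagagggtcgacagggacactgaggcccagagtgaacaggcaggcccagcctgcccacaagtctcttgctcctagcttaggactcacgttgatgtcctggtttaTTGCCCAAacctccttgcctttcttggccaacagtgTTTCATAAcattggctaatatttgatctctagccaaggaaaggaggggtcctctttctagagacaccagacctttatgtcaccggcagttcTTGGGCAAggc
S100a8 (chr3:90668821-90669070, plus strand): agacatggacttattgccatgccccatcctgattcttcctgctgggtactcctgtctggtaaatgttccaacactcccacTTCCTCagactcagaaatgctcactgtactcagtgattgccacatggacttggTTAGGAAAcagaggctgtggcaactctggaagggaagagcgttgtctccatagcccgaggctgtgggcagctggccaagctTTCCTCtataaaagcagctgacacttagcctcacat

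TTNNGNAA was found in 5 of the 6 later genes, with 3 matches each in Chil3 and Ngp, 2 each in Ltf and S100a9 and 1 in S100a8. None of the 6 windows held a MYB motif, and GAGGAA was found in Ltf and S100a8. Camp had no match to any of the motifs, as did 33.1% of all windows. TTNNGNAA without a MYB motif was held by 27.0% of all windows and by 0 of the 4 primary granule genes. The motifs were chosen with the differences of these genes known, and the combinations counted are those seen in these windows, so their shares are no test.

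**Figure D2:**
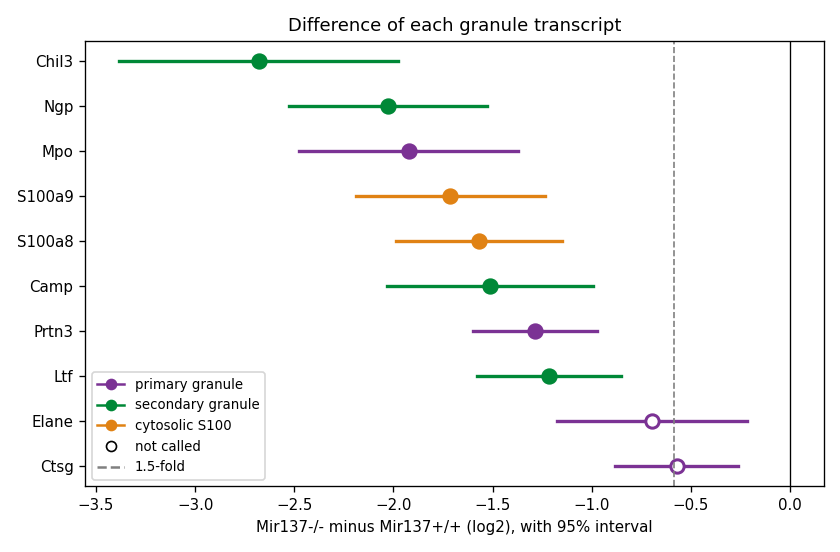
Difference between Mir137-/- and Mir137+/+ (log2, points) with its 95% interval (lines) for each of the 10 granule genes, in order of size and coloured by class. Filled points were called. Chil3 (-2.68) is at one end and Elane (-0.70) and Ctsg (-0.57), the open points, are at the other, with Mpo and Prtn3 among the later genes.

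In order of size, the differences ran from Chil3 (-2.68) through Ngp, Mpo, S100a9, S100a8, Camp, Prtn3, Ltf and Elane to Ctsg (-0.57). The 95% intervals of every pair of neighbours in this order overlapped. Those of Chil3, Ngp, Mpo and S100a9 lay wholly below those of Elane and Ctsg. The widest steps were 0.65 between Chil3 and Ngp and 0.52 between Ltf and Elane. Mpo, a primary granule gene, came next after Chil3 and Ngp, ahead of both S100 genes, so the classes were mixed along it.

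As a class, the later genes lay further below the Mir137+/+ mean than the primary genes. The mean deviation of the 4 primary genes from the Mir137+/+ mean was -1.20, -0.95 and -1.21 on Mir137-/- replicates 1 to 3, and that of the 6 later genes was -2.07, -1.36 and -1.93. The later mean minus the primary mean was thus -0.87, -0.41 and -0.72 on the Mir137-/- arrays and 0.02, 0.19 and -0.21 on the Mir137+/+ arrays, so the groups did not overlap. Its mean in Mir137-/- was -0.67 ± 0.23 (SD, n = 3). No p is given for these means because the members were chosen with earlier results known.

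This gap between the classes was smaller when Elane and Ctsg were left out. Their differences were the smallest of the 10, so leaving them out had to shrink it. The later genes with the smallest differences were not left out to match. Mpo and Prtn3 alone deviated by -1.81, -1.36 and -1.65 on the Mir137-/- arrays, and the later mean minus that of Mpo and Prtn3 was -0.27, 0.00 and -0.28 there and 0.03, 0.20 and -0.24 in Mir137+/+. With Mpo and Prtn3 as the primary class, a choice made after the data were seen, the difference between the classes was -0.18 in place of -0.67, and the groups overlapped. In Mir137-/-, 4 of the 10 genes had a mean below the median of the arrays, namely Mpo and Chil3, which fell, and Elane and Ctsg, which were not called. In Mir137+/+, Ctsg alone did. The part of signal level in the gap was not tested.

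**Figure D3:**
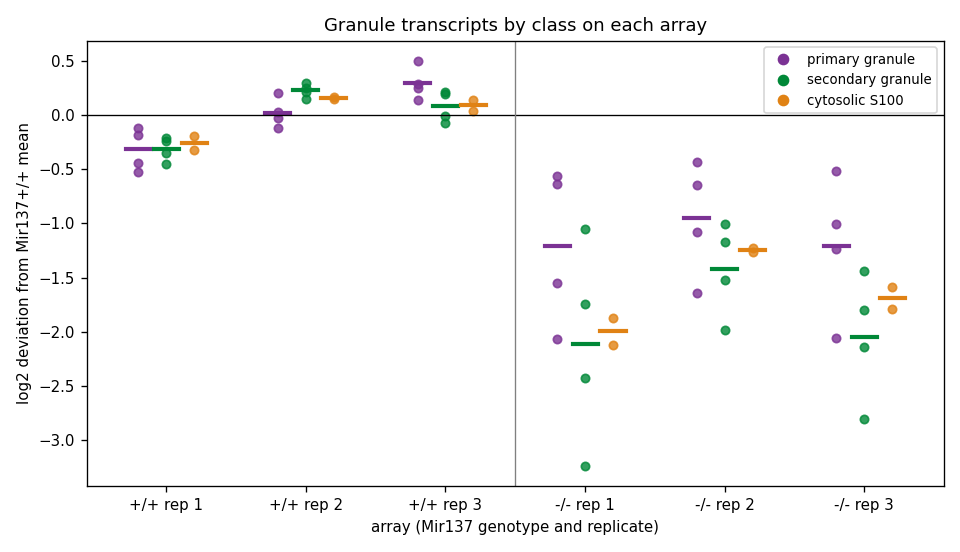
Log2 deviation of each granule gene from its Mir137+/+ mean (points) on each of the 6 arrays, with the mean of each class (short bars). All 10 genes are below 0 on all 3 Mir137-/- arrays, Mir137-/- replicate 2 is the nearest to 0 for the mean of the later genes, and Mir137+/+ replicate 1 is the lowest Mir137+/+ array.

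Most of the genes also shared an order among arrays of 1 genotype. Mir137-/- replicate 2 was the highest of its group for 8 of the 10 genes, and Mir137+/+ replicate 1 was the lowest of its group for all 10. How many of all probe sets had these orders was not counted, so the orders may not be particular to granule genes. Mir137-/- replicate 2 was an array with pancreas transcripts. Without the 2 arrays that held them, 8 of the 10 genes and 1.27% of all probe sets were called lower, and the mean differences were -1.20 for primary and -1.90 for later genes. Mir137+/+ replicate 1 was the array of its group without Xist, and the 3 Mir137-/- arrays had no Xist either. Since that array was the lowest of its group for all 10, the 9 genes with all 3 Mir137-/- arrays below it are those already counted as separate. They are no further result, and the share of all probe sets below that array was not counted. The Mir137-/- mean minus that array was -2.23 for Chil3, -1.82 for Ngp, -1.39 for Mpo and -1.17 for Prtn3. With a term for sex in the fit, taken from Xist, 5 of the 10 were called, namely Mpo, Prtn3, Ngp, Chil3 and S100a8. In that fit, 0.784% of all probe sets were called lower. The adjusted p of the 5 ran from 0.0421 (Prtn3) to 0.049 (Chil3), and S100a9 was at 0.0613, so no clear line parted them. Without both Xist arrays, which left 1 Mir137+/+ array, limma called 0 of the 10 and 0.349% of all probe sets lower. There 9 of the 10 were lower at an unadjusted p below 0.05, as were 6.14% of all probe sets. When Mir137-/- replicate 1, which carried muscle transcripts, was left out, 8 were called, against 2.12% of all probe sets called lower.

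Other genes of granulocytes were read from lists, with the brightest probe set of each gene. Among 18193 genes, 3.27% were called lower and 2.29% higher, with a median difference of 0.00. At an unadjusted p below 0.05 from limma and any fold, 11.5% of all 45037 probe sets were lower. That share belongs beside the unadjusted counts of the lists below. Of 13 further genes of secondary and tertiary granules and their membranes, 4 fell and 0 rose, and 12 had a negative difference, with a median of -0.38. Lcn2, the siderophore-binding protein of secondary granules that hepatocytes make too, fell by 1.98 (adjusted p = 5.72e-04). It was at 6.65, 7.30 and 7.16 in Mir137-/- and at 9.02, 8.84 and 9.18 in Mir137+/+. Olfm4, a protein of some secondary granules, fell by 1.12 (adjusted p = 0.0276), Cd177, a surface glycoprotein of neutrophils, fell by 1.11 (adjusted p = 0.00175), and Pglyrp1, which binds bacterial peptidoglycan, fell by 0.78 (adjusted p = 0.0430). The gelatinase Mmp9 was at -0.38 (adjusted p = 0.0488, under 1.5-fold) and the collagenase Mmp8 at -0.77 (adjusted p = 0.0810). Slpi, a protease inhibitor made by many cells, was the one with a positive difference (0.93, adjusted p = 0.108).

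Of 5 further promyelocyte genes, 0 were called and 5 had a negative difference, with a median of -0.44. Of these 5, limma gave 3 an unadjusted p below 0.05, all lower, against 11.5% of all probe sets. Ctsc, which encodes the protease that activates elastase, cathepsin G and proteinase 3, had a difference of -0.55 (adjusted p = 0.0111), short of 1.5-fold. Ms4a3, a marker of granulocyte-monocyte precursors, was at -0.44 (adjusted p = 0.0557).

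Mature neutrophils were read from receptors, signalling proteins and other genes of late stages. Of 23 listed, 16 were measured, 1 fell and 0 rose, with 10 negative differences and a median of -0.08. At an unadjusted p below 0.05 from limma, 5 of the 16 were lower, against 11.5% of all probe sets, and 1 was higher. The median near 0 thus does not show the list to be unchanged. The faller was Padi4, the enzyme that citrullinates histones, at -0.69 (adjusted p = 0.00486). It was at 2.46, 2.57 and 2.53 in Mir137-/- and 3.16, 3.13 and 3.33 in Mir137+/+. These values lay below the lower quartile of every array. Cxcr2, the chemokine receptor of mature neutrophils, was at 3.95, 3.95 and 4.15 in Mir137-/- and 4.13, 3.94 and 4.18 in Mir137+/+, and differed by less than the spread (-0.07, adjusted p = 0.782). Csf3r, the receptor of the granulocyte growth factor, was at 5.56, 5.59 and 5.78 against 5.67, 5.95 and 5.63, with groups that overlapped (-0.11, adjusted p = 0.669). Lower values were seen for Stfa3, a protease inhibitor (-0.70, adjusted p = 0.146), Ifitm6 (-0.54, adjusted p = 0.0438, under 1.5-fold) and the formyl peptide receptor Fpr2 (-0.52, adjusted p = 0.134), and higher values for Clec4d (0.39, adjusted p = 0.340) and the decoy receptor Il1r2 (0.38, adjusted p = 0.221). These 7 genes were named after their values were seen. Of the 16 measured genes, 8 had a mean below the median of the arrays, so a difference in mature cells may not have been detectable. The list on each array, as its mean deviation from the Mir137+/+ mean, ran from -0.19 to 0.04 in Mir137-/- and from -0.02 to 0.02 in Mir137+/+.

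Among 8 measured regulators of granulopoiesis, 2 fell and 0 rose. Myb, a transcription factor of blood precursors that promyelocytes need, was at 4.09, 4.21 and 3.60 in Mir137-/- and at 6.80, 7.20 and 7.24 in Mir137+/+. It fell by 3.11 (SE 0.18, adjusted p = 1.05e-04), more than any of the 10 granule genes, and its other two probe sets were at -3.26 and -2.95. Cebpb, a factor of myeloid cells that hepatocytes express strongly, fell by 0.68 (adjusted p = 0.0163). The myeloid factor Spi1, which encodes PU.1, was at -0.01 (adjusted p = 0.959), Cebpa at -0.03 and Runx1 at 0.19. Gfi1, a repressor that granulocytes need, was at -0.33 (adjusted p = 0.120). Its values, 1.94 to 2.53, lay below the lower quartile of every array. Of 8 neutrophil chemokines and growth factors, 0 were called in either direction with a median of -0.01. At an unadjusted p below 0.05, 1 was higher and 0 were lower. Cxcl12, which holds neutrophil precursors in marrow, was the brightest of them and was at -0.06 (adjusted p = 0.793).

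Markers of other blood cells were read for the same arrays. All 9 measured genes of B cell precursors fell, with a median of -1.21, and their mean deviation was -1.60 to -1.31 on the Mir137-/- arrays and -0.14 to 0.16 on the Mir137+/+ arrays. Pou2af1, a coactivator of B cells, was at -2.75 (adjusted p = 8.06e-05) and Rag1, which rearranges antigen receptor genes, was at -2.61 (adjusted p = 5.29e-04). Of 9 eosinophil, basophil and mast cell genes, Prg2, which encodes the major basic protein of eosinophils, fell by 1.74 (adjusted p = 0.00589) and the others were not called (median -0.05). Of 8 monocyte genes, Plac8 fell by 0.85 (adjusted p = 0.00315), with a median of -0.13. Of 10 Kupffer cell genes, limma called 0, with a median of 0.03 and Cd5l at 0.33 (adjusted p = 0.0864). At an unadjusted p below 0.05, 1 was lower and 2 were higher. Of 8 genes of all leukocytes, Coro1a fell by 0.69 (adjusted p = 0.0105), with a median of -0.12. Of 7 T and NK cell genes, Gzma fell by 0.96 (adjusted p = 0.00372), with a median of 0.01.

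Of 8 erythroid genes, Car1, which encodes a carbonic anhydrase, fell by 0.65 (adjusted p = 0.0125), with a median of -0.08. Of 7 genes of blood progenitors and 11 cell cycle genes, limma called 0, with medians of -0.24 and -0.20. In each list, 2 were lower at an unadjusted p below 0.05, against 11.5% of all probe sets. Hlf was at -0.03 (adjusted p = 0.913) and Mki67 at -0.11 (adjusted p = 0.807). Of 8 hepatocyte genes, limma called 0, with a median of 0.00. At an unadjusted p below 0.05, 1 was lower and 1 was higher. The lists of B cell precursors and of granule genes thus moved with the genotype on the same arrays, and the part of either in the other was not tested.

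**Figure D4:**
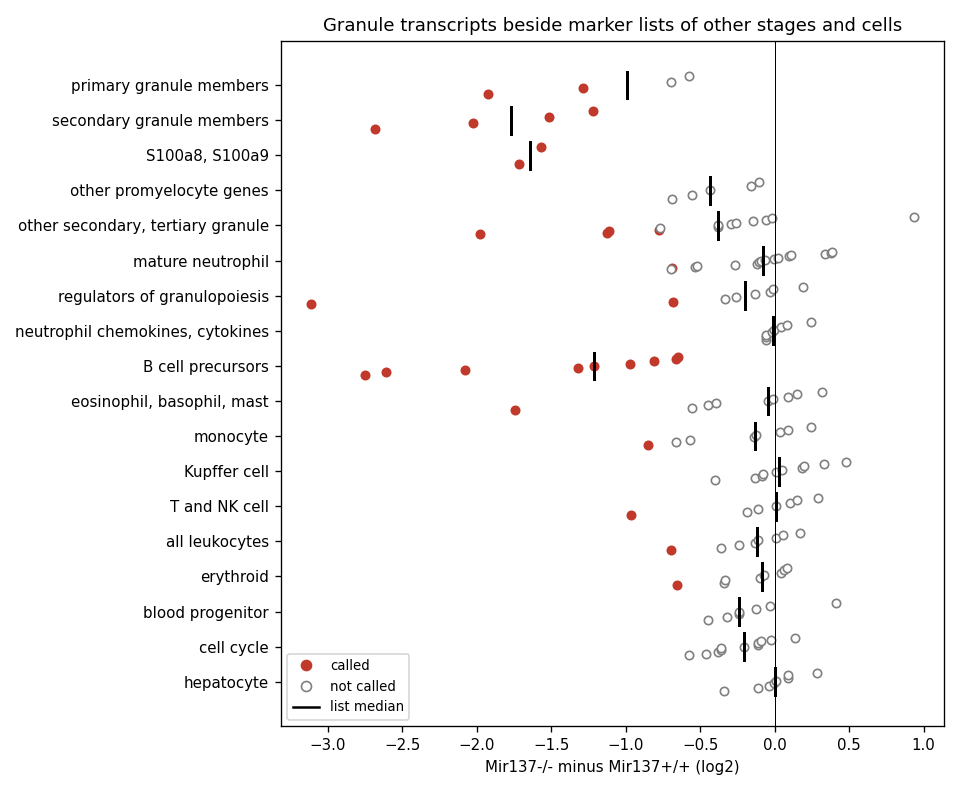
Difference between Mir137-/- and Mir137+/+ (log2) of each gene (points, red where called) in the granule classes and in lists of other stages and cell types, with the list medians (black bars). The granule classes (medians -0.99, -1.77 and -1.64) and B cell precursors (-1.21) lie left of 0, and mature neutrophil (-0.08), Kupffer cell (0.03), erythroid (-0.08) and hepatocyte (0.00) lists lie near it. Of the 16 measured mature neutrophil genes, 8 had a mean below the median of the arrays.

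The genes whose values over the 6 arrays were most like the granule genes were found by the root mean square distance between log2 deviations from the Mir137+/+ mean. Nearest to the mean of the primary genes were Myl4, a myosin light chain (distance 0.10), Oasl2 (0.11) and Dhx58 (0.15), both induced by interferon, H2aw, a histone (0.12), and Zfp276 (0.15). Nearest to the mean of the later genes were Il7r, a subunit of the interleukin-7 receptor (0.09), Cd24a, a surface glycoprotein of B cell precursors and neutrophils (0.15), Cdhr5 (0.20), Rnd1 (0.20) and Prg2 (0.21). Il7r was at 3.99, 4.56 and 3.97 in Mir137-/- and at 5.75, 6.09 and 6.17 in Mir137+/+. Like most of the granule genes, it was highest on replicate 2 among the Mir137-/- arrays and lowest on replicate 1 among the Mir137+/+ arrays. Since the distance was taken over both genotypes, genes with a fall of like size were chosen by it.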

How the data were processed

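Total liver RNA of 6 mice was hybridised to Affymetrix Mouse Genome 430 2.0 arrays. The authors deposited log2 probe set summaries, for which the study's methods name RMA with a baseline-to-mean step and the labels name GCRMA. The deposited values were levels, were used without further normalization, and came without detection calls. Groups followed the sample labels. After 64 control probe sets were left out, a linear model on genotype alone was fitted to the other 45037 (lmFit and eBayes of limma 3.58.1, R 4.3.3). Benjamini-Hochberg adjustment ran over all of them, and calls needed an adjusted p below 0.05 and more than 1.5-fold. P values are two-sided, and differences are Mir137-/- minus Mir137+/+. The annotation gave 1 symbol to 34945 probe sets, several to 932 and none to 9160. By Entrez ID, 34741 matched RefSeq (GRCm38). The fit was tested on simulated data.

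The members, lists, motifs and alternatives were chosen with earlier results of these data known. Named were all members, up to 6 called genes of each granulocyte list, up to 2 called genes or the brightest gene of each other list, and the 5 nearest profiles of each class. Others were named after their values were seen. Alternatives were the moderation, scaling, array weights (statmod, version 1.5.0), probe set filters, thresholds, a plain t-test, a replicate block, sex, and leaving out arrays. With 3 arrays per group, the number of animals limits the precision.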

Additional observations from a re-analysis of the deposited data

How the results depend on the processing

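All 10 genes kept a negative difference under each of 22 alternatives that measured them, and 0 genes were called higher under any of them. Many of the 218 values repeat the main difference, because those alternatives changed only the test, the threshold or the other probe sets. Their sign was therefore fixed in advance. For the 9 genes whose groups did not overlap, leaving out arrays could not turn the sign either. The count called lower was 8 or 9 when each array was left out in turn, against 1.86% to 2.78% of all probe sets. It was 5 with limma's treat against 1.5-fold, against 0.364% of all probe sets, and this dropped Prtn3 (adjusted p = 0.0604), Camp (0.172) and Ltf (0.198). It was 0 with a plain t-test after Benjamini-Hochberg adjustment, against 0.619% of all probe sets. At an unadjusted p below 0.05 that test had 9 of the 10 and 10.4% of all probe sets lower. The count was 5 with a sex term taken from Xist (0.784% of all probe sets) and 0 without the 2 arrays with Xist (0.349%), where 9 of the 10 and 6.14% of all were lower at an unadjusted p below 0.05. Both of these rest on Mir137+/+ replicate 1 alone, which was assumed to vary like the other arrays. There the mean difference of the primary genes was -0.80 in place of -1.12 and that of the later genes -1.50 in place of -1.79. When each array was left out, the primary mean ran from -1.28 to -0.97, the later mean from -2.0 to -1.64 and their difference from -0.80 to -0.57. Without Elane and Ctsg, an alternative added after the data were seen, the difference between the classes was -0.18. Elane was called with trend and robust moderation (-0.70) and without Mir137+/+ replicate 1 (-0.92), and not in the other fits that left out an array.

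The replicate number as a block gave 8 calls. Every number had an array of each genotype, so the block could not change a mean difference, and that between the classes stayed at -0.67. Same-numbered arrays deviated together at correlations of 0.00 to 0.21 across probe sets, against -0.15 to 0.08 for arrays of different numbers. Of the 6 arrays, 4 correlated best with their own number. The labels name biological replicates and no pairs, so the main fit had no pairing, and whether the numbers are pairs was not settled. Ctsg was removed by the filter on the 40% dimmest probe sets.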

Other observations

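A further probe set named both Chil4 and Chil3 and was therefore no member. It was at 3.54, 4.37 and 3.94 in Mir137-/- and at 5.55, 6.16 and 6.05 in Mir137+/+, a difference of -1.97 (SE 0.23, adjusted p = 0.00179), and the probe set of Chil4 alone was at 3.0 in both groups on average. Among the protein-coding genes next to the granule genes in the RefSeq annotation (GRCm38), 13 of 16 were measured, 1 fell and 0 rose. The faller was Rtp3, next to Ltf, at -0.78 (adjusted p = 0.0210). Lpo, the peroxidase gene 2015 bases from Mpo, was at 0.06 (adjusted p = 0.854), and Mcpt8, a basophil protease gene next to Ctsg, was at -0.56 (adjusted p = 0.0463), under 1.5-fold.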
